A study of Mus musculus with 24 samples.

Results

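Apolipoproteins are the protein components of the lipid particles that carry cholesterol and triglyceride in blood, and 10 of their genes were followed through mouse liver cultures here: Apoa1, Apoa2, Apoa4, Apoa5, Apob, Apoc1, Apoc3, Apoe, Apoh and Apom. They were taken by symbol from 3 expression tables that list 31053, 25876 and 20729 genes, and all 10 were listed in each table. In liver, hepatocytes are the main source of these proteins. Apob is the large structural protein around which very low density lipoprotein is built in the hepatocyte, Apoa1 and Apoa2 are the main proteins of high density lipoprotein, and the smaller exchangeable members move between particles and act on lipases and receptors. Apoe is the ligand through which remnant particles are taken up by lipoprotein receptors, and outside hepatocytes it is also made by macrophages and stellate cells.

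All cultures came from adult BALB/c mice of 6 to 8 weeks, with no engineered allele in any group. Cholangiocyte organoids (Cho-Orgs) were grown from EpCAM+ liver cells in a medium with Noggin, Wnt3a and forskolin, and 3 libraries each were made at passage 0 (P0), P5 and P10. Primary hepatocytes (Pri-Hep) were isolated by density gradient and removal of EpCAM+ cells. Their organoids, called Hep-Orgs, were sequenced at 3 passages (P1, P5, P10), with 3 libraries for each of these 4 groups. These Hep-Orgs were grown with the Notch pathway inhibitor DAPT and the glucocorticoid dexamethasone. Hep-Orgs at P0 in a hepatocyte medium that did not yet hold these 2 additives were picked by shape as grape-like, intermediate and round-like, and each shape gave 1 Smart-Seq library, a method in which full-length cDNA is amplified from little RNA. The paper describes the replicates both as 3 mice and as separate cultures, and the p-values below measure the spread between these libraries.

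Levels are FPKM, the fragments of a gene per kilobase of its length and scaled for the depth of the library, as deposited. Depth was 14068906 to 27160365 fragments per library in the hepatocyte table, where it was recovered exactly, and was estimated at 37470000 to 39930000 for Cho-Orgs and at 40040000 to 40380000 for the Smart-Seq libraries. Fold changes from limma are differences of log2(FPKM + 1), which understate the change of a gene near or below 1 FPKM. Ratios of mean FPKM are given beside them. The 3 tables were normalized apart from each other and were never fitted together.

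The libraries did not all carry the markers of their label. In the 12 libraries of the hepatocyte table, Alb lay between 106 and 128 FPKM, the cholangiocyte markers Krt19 and Spp1 lay between 229 and 247 and between 3020 and 3237 FPKM, and the hepatocyte enzyme Pck1 was at 0 in all 12. The hepatocyte enzyme Cyp2e1 and the hepatocyte receptor Asgr1 did not pass 0.04 FPKM in any of the 12, the libraries labelled Primary hepatocytes included. Among the 13 measured hepatocyte markers, 6 reached 1 FPKM in every one of these libraries. The values of this table are therefore given under the groups' labels, and no hepatocyte identity is read from them. The Cho-Orgs libraries held all 10 cholangiocyte markers at 1 FPKM or more at each passage, and at P0 they also held 10 of the 13 measured hepatocyte markers.

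Of the 10 genes, 6 lie in 2 clusters, with coordinates of GRCm38 and the GENCODE M21 annotation, which match those in the hepatocyte table. The cluster on chromosome 9 holds Apoa1 (chr9:46228580-46230466, + strand), Apoc3 (chr9:46232933-46235636, − strand), Apoa4 (chr9:46240696-46243459, + strand) and Apoa5 (chr9:46268633-46271919, + strand). The cluster on chromosome 7 holds Apoc1 (chr7:19689481-19692660, − strand) and Apoe (chr7:19696109-19699188, − strand). The other members are spread over chromosome 1 (Apoa2, chr1:171225054-171226379, + strand), chromosome 12 (Apob, chr12:7977648-8016835, + strand), chromosome 11 (Apoh, chr11:108343354-108414396, + strand) and chromosome 17 (Apom, chr17:35128997-35132050, − strand). Exons of Apoa4, Apoa5 and Apoh overlap those of other annotated genes, among them antisense transcripts at Apoa4, and whether the counting used strand is not given in the sources used here, so some of their fragments could belong to the neighbour.

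The bases before the transcription start of 4 members are shown as examples. During culture of Cho-Orgs, Apoa1 and Apoe fell strongly in both passage intervals, and Apob and Apoh mainly before P5. The sequences are from RefSeq on GRCm38.p6, written 5′ to 3′ in the direction of the gene. Matches to 3 motifs, searched on both strands, are in capitals: AAAGTCCA (part of the HNF4 consensus), AGGTCA (the nuclear receptor element, TGACCT on the other strand) and TATAAA (the TATA box).
Apoa1, chr9:46228380-46228579, + strand: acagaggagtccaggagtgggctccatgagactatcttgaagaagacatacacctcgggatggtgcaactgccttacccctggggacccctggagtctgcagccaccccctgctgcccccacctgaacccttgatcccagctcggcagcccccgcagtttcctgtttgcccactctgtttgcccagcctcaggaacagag
Apoe, chr7:19699189-19699438, − strand: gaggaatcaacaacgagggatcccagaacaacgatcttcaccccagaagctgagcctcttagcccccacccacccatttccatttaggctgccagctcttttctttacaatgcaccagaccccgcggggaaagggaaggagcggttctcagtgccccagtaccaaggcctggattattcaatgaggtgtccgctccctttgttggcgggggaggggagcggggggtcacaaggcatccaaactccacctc
Apob, chr12:7977427-7977647, + strand: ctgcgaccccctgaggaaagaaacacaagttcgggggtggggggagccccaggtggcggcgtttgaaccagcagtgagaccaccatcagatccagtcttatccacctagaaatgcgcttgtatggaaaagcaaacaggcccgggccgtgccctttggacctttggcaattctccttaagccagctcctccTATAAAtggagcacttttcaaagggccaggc
Apoh, chr11:108395047-108395292, + strand: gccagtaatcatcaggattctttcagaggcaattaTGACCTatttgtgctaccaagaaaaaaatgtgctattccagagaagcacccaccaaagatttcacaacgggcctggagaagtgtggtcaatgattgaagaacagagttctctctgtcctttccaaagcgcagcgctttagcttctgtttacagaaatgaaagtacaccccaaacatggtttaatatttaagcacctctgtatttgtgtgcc
For Apoa1, Apob and Apoh the stretch is 200, 221 and 246 bases of a 250-base window. The end next to the RefSeq start was left out because annotated exons of the gene lie in it. In these stretches the Apob sequence held TATAAA, the Apoh sequence held TGACCT, and the Apoa1 sequence and the Apoe sequence shown held none of the 3 motifs. The full windows of Apoa1, Apob and Apoh held no further match. RefSeq gives Apoe 3 windows, for different transcript starts, and another of them (chr7:19698622-19698871, − strand) held TATAAA on both strands. The same motifs occurred in the 250 bases before the start in 12.4% (TATAAA), 14% (AGGTCA) and 1.01% (AAAGTCCA) of 32851 mouse promoter windows. Of the 10 members, 8 had a window in the reference, with 12 windows in all, and Apoc1 and Apoc3 had none. A match is a run of letters and does not show binding. The Apoh stretch lies inside the annotated span of the gene, before the start that RefSeq gives.

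In Cho-Orgs, every apolipoprotein gene was higher in all 3 P0 libraries than in all 3 P10 libraries. The summed level of the 10 genes was 1168 to 1512 FPKM at P0, 132 to 157 FPKM at P5 and 8.87 to 9.63 FPKM at P10. The 10 genes took 0.27% to 0.348% of the summed FPKM of all genes at P0 and 0.00208% to 0.00224% at P10. Of all 11593 genes tested in this table, 32.6% had all P0 libraries above all P10 libraries. That share is not a like comparison for the 10 members. Of these, 8 were among the genes tested, and 5 of the 8 passed the filter only with the P0 libraries. A higher level at P0 was built into the selection of those 5, and nothing is read from the number of members. In bulk samples such as these, fewer cells of a type and less RNA per cell cannot be told apart.

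Apoe was the most abundant member at P0. Its level was 736, 1000 and 676 FPKM in the 3 P0 libraries, 49.2, 57.3 and 52.5 FPKM at P5 and 3.33, 3.44 and 3.01 FPKM at P10. The 3 passages did not overlap, and the spread within a passage was small beside the steps between passages. Ranked among all genes of a library, Apoe took places 48 to 86 at P0, 1137 to 1346 at P5 and 8545 to 8812 at P10. The mean fell by a factor of 15.2 from P0 to P5 and by a factor of 16.3 from P5 to P10. The log2 changes were −3.88 ± 0.127 (SE, limma adjusted p = 2.1e-08) and −3.66 ± 0.127 (adjusted p = 5.32e-08), and the change over both intervals was −7.54 ± 0.127 (adjusted p = 1.28e-10).

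Apoc1, a small exchangeable apolipoprotein encoded beside Apoe, followed with 337, 418 and 307 FPKM at P0. It was at 60.7, 82.4 and 58.1 FPKM at P5 and at 4.402, 4.33 and 5.396 FPKM at P10. The passages were again apart in all libraries, but the smaller step came before P5. The mean fell by a factor of 5.28 to P5 and by a factor of 14.2 from P5 to P10, with log2 changes of −2.39 ± 0.148 (limma adjusted p = 1.15e-06) and −3.56 ± 0.148 (adjusted p = 1.12e-07). As a result the order of the neighbours Apoe and Apoc1 turned: the ratio of Apoe to Apoc1 FPKM was 2.19 to 2.40 at P0, 0.696 to 0.904 at P5 and 0.557 to 0.795 at P10. Both genes lost level throughout, and Apoc1 was the higher of the pair from P5 on.

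Apoa1 varied most among the abundant members at P0. Its level was 197, 51.7 and 120 FPKM in the P0 libraries, 20.3, 16.0 and 23.9 FPKM at P5 and 0.265, 0.297 and 0.135 FPKM at P10. The P10 values rest on an estimated 10, 11 and 5 fragments. The mean fell by a factor of 6.14 to P5 and by a factor of 86.2 from P5 to P10, and the log2 changes were −2.38 ± 0.379 (limma adjusted p = 0.000513) and −4.08 ± 0.379 (adjusted p = 1.46e-05). Over both intervals the mean fell by a factor of 529, more than that of Apoe, although the log2 change after a pseudocount of 1 was smaller (−6.46 ± 0.379, adjusted p = 2.64e-07). At P5 Apoa1 still made up 10.1% to 17.5% of the summed apolipoprotein level, against 1.40% to 3.35% at P10.

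**Figure D1:**
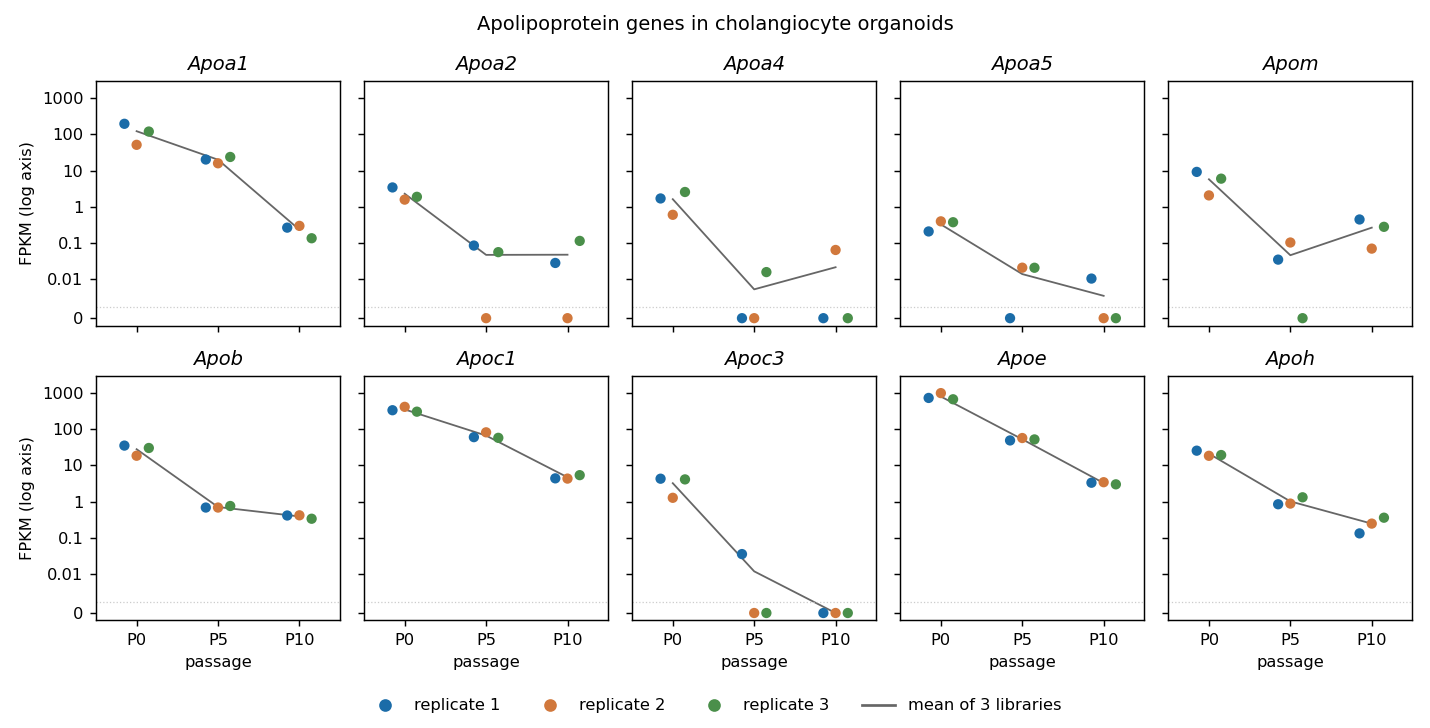
Level of the 10 apolipoprotein genes in Cho-Orgs at P0, P5 and P10 in FPKM on a log axis, with 1 point per library, the replicate number as colour, a line through the means of 3 libraries and values of 0 drawn below the dotted line. All 10 genes were higher in every P0 library than in every P10 library, and Apoe, Apoc1, Apoa1, Apob and Apoh were also higher in every P5 library than in every P10 library.

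Apob, the structural protein of very low density lipoprotein, and Apoh, a plasma glycoprotein that binds phospholipid, lost most of their level before P5. Apob was at 35.4, 18.6 and 30.4 FPKM at P0, at 0.686, 0.686 and 0.757 FPKM at P5 and at 0.413, 0.419 and 0.337 FPKM at P10. Its mean fell by a factor of 39.6 to P5 (log2 change −4.04 ± 0.183, limma adjusted p = 1.47e-07) and by a factor of 1.82 after it. The later log2 change of Apob did not pass the threshold (−0.30 ± 0.183, adjusted p = 0.181), although all 3 P5 libraries were above all 3 P10 libraries, and it passed with a pseudocount of 0.1 (−0.73, adjusted p = 0.0113). Apoh was at 25.6, 18.5 and 19.4 FPKM at P0, at 0.847, 0.883 and 1.32 FPKM at P5 and at 0.132, 0.247 and 0.360 FPKM at P10. Its mean fell by a factor of 20.9 and then of 4.13, with log2 changes of −3.45 ± 0.134 (limma adjusted p = 5.91e-08) and −0.69 ± 0.134 (adjusted p = 0.00145). The ratio of Apoa1 to Apob FPKM therefore rose from 2.79 to 5.57 at P0 to 23.3 to 31.5 at P5 and was 0.401 to 0.710 at P10, which was below its P0 range.

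Apom, which carries sphingosine-1-phosphate on high density lipoprotein, was at 9.23, 2.07 and 6 FPKM at P0. It was at 0.0346, 0.103 and 0 FPKM at P5 and at 0.446, 0.0698 and 0.280 FPKM at P10. The P5 libraries held an estimated 1, 3 and 0 fragments and the P10 libraries 13, 2 and 8, so the groups overlapped. The log2 change to P5 was −2.53 ± 0.348 (limma adjusted p = 0.000208), and the mean at P10 was 5.78 times that at P5 without a change past the threshold on the log2 scale. Against P0 the P10 mean was lower by a factor of 21.7, with a counting interval of 14.3 to 34.4.

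The remaining members were low from the start. Apoa2, the second main protein of high density lipoprotein, was at 3.43, 1.58 and 1.89 FPKM at P0 and at no more than 0.114 FPKM in any later library. Apoc3, an inhibitor of triglyceride lipolysis, was at 4.30, 1.28 and 4.12 FPKM at P0, was read with an estimated 1 fragment over the 3 P5 libraries and was at 0 in all 3 P10 libraries. Its P0 mean was at least 29.5-fold higher than the P10 floor of 3 fragments per library. Apoa4, made by intestine and liver, was at 1.70, 0.601 and 2.57 FPKM at P0 and at no more than 0.0641 FPKM later. Apoa5, an activator of lipoprotein lipase, was at 0.208, 0.396 and 0.375 FPKM at P0 and at no more than 0.0207 FPKM later. The P0 libraries did not overlap the later ones for any of these 4 genes, while P5 and P10, with at most an estimated 5 fragments in each group, could not be separated at this depth.

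Of the 10 members, 8 passed the filter of 1 FPKM in 3 libraries, and Apoa4 and Apoa5 did not. Of these 8, 5 (Apoa2, Apob, Apoc3, Apoh and Apom) passed only with the P0 libraries, so a lower level later was built into their selection and their number supports nothing. The 3 that passed without them were Apoa1, Apoc1 and Apoe. From P0 to P5 all 8 were called lower, beside 22.6% of all genes tested. From P5 to P10 Apoa1, Apoc1, Apoe and Apoh were called lower, or 4 of 8 beside 30.5% of all genes. From P0 to P10 all 8 were called lower, beside 31.3% of all genes, and none was called higher, beside 41%. Over all genes, 3938 were higher and 2621 lower at P5 than at P0, and with median-ratio size factors this split became 3087 higher and 3449 lower, while the same 8 members stayed lower. Of 10 members, 5 were higher in all P0 than in all P5 libraries and higher in all P5 than in all P10 libraries, a pattern that 11.1% of the genes tested showed.

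**Figure D2:**
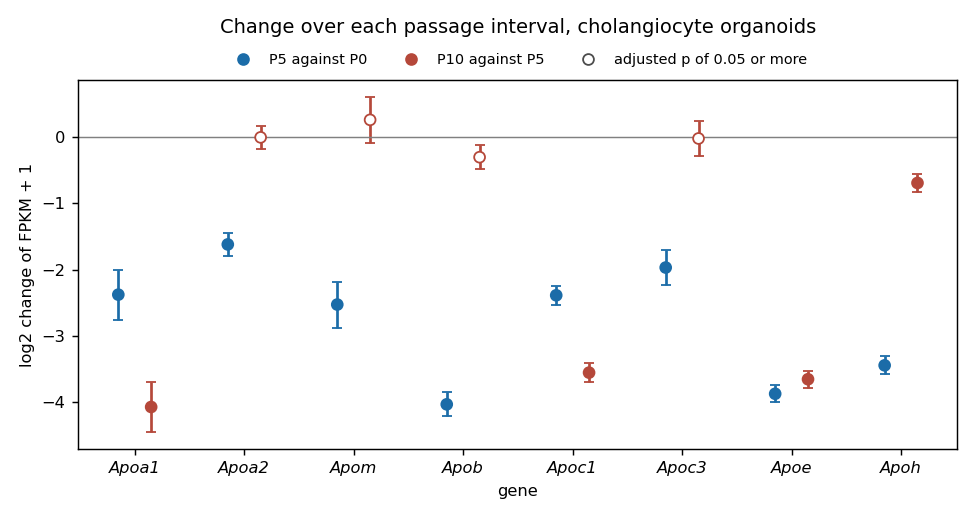
Log2 change of FPKM + 1 with its standard error for the 8 tested apolipoprotein genes in Cho-Orgs, from P0 to P5 in blue and from P5 to P10 in red, with open points where the limma adjusted p was 0.05 or more. Apoa1, Apoc1 and Apoe fell by more than 2 on this scale in both intervals, whereas Apob fell by 4.04 before P5 and changed by −0.30 after it.

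The difference between the intervals was tested as a contrast of its own, chosen after the values were seen. The change from P5 to P10 minus that from P0 to P5 was 3.74 for Apob (limma adjusted p = 1.68e-05), 2.79 for Apom (adjusted p = 0.00403), 2.76 for Apoh (adjusted p = 1.58e-05), 1.95 for Apoc3 (adjusted p = 0.00652) and 1.62 for Apoa2 (adjusted p = 0.00167), all in the direction of a larger fall before P5. Of all genes tested, 20.9% were called in that direction. These 5 are the members that passed the filter only with the P0 libraries, so this direction was built into their selection and nothing is read from their number. All 5 were near or below 1 FPKM at P5, where log2(FPKM + 1) leaves little room for a further fall. Apoc1 went the other way with −1.17 (adjusted p = 0.00423), beside 27.8% of all genes. Apoa1 leaned the same way without passing the threshold (−1.70 ± 0.657, adjusted p = 0.0563). It passed with the replicate number as a block (limma adjusted p = 0.0369) and with a pseudocount of 0.1 (−3.51, limma adjusted p = 0.0029). For Apoe the contrast was 0.22 (adjusted p = 0.442). Without replicate 3 of each passage the values of Apoc3 and Apom were 1.75 (adjusted p = 0.086) and 2.61 (adjusted p = 0.077).

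At P0 the replicate 2 library was the lowest of 3 for 7 of the 10 members and the highest for Apoe, Apoc1 and Apoa5. Among the 10 hepatocyte markers at 1 FPKM or more it was the lowest for 5 and the highest for 3. These shares were not counted over all genes, so nothing is read from them. Serpina1b, a secreted protease inhibitor of hepatocytes, was at 209, 44.4 and 115 FPKM in replicates 1, 2 and 3, while Alb was at 5202, 4526 and 5254 FPKM. Without this library the 8 tested members were still called lower at P5 and at P10 than at P0.

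Markers of several cell types also changed between passages, not all in the direction of the apolipoprotein genes. The summed level of the 13 measured hepatocyte markers was 7299 to 8105 FPKM at P0, 213 to 270 FPKM at P5 and 90.2 to 96.1 FPKM at P10, with 10, 7 and 4 of them at 1 FPKM or more. Within the P10 sum, Hnf4a alone was at 58.1, 56.9 and 54.0 FPKM. The 10 cholangiocyte markers summed to 5608 to 6975, 3902 to 4102 and 3821 to 3865 FPKM. Of the 12 macrophage markers 2 reached 1 FPKM at P0 and 1 later, and the sum was 43.8 to 49.5, 72.1 to 77.3 and 10.06 to 10.53 FPKM. At P5, 9 of the 12 were at 0 in every library, and 9 were at P10, with Lyz2, C1qa, C1qb and C1qc among them both times. The later sums therefore rest on few markers and are not read as a change of macrophages. The Kupffer cell markers Clec4f and Vsig4 were at 0 in all 9 libraries. The 10 stellate cell markers, of which 2, 2 and 1 reached 1 FPKM, summed to 92.6 to 110.5, 28.3 to 32.2 and 6.71 to 7.73 FPKM, and Acta2 was at 0 at P5 and P10. The 8 endothelial markers did not sum above 1.65 FPKM in any library. Whether these cell types had a part in the fall of the apolipoprotein genes was not tested.

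The genes whose levels most resembled the members over the 9 Cho-Orgs libraries are given as a description, with libraries of the same 3 passages as points. Closest to the mean of the members were Slfn9, Dna2, Pcna, Mcm7 and Mcm2, with Pearson r of 0.9941 to 0.9962 on log2(FPKM + 1), and 19 genes had an r above 0.99. Pcna, Mcm7 and Mcm2 act in DNA replication. Pcna had means of 162, 78.3 and 63.1 FPKM at P0, P5 and P10. Closest to Apoe alone were Reln, Fabp5, Alb, Ppt1 and Plet1, with r of 0.9973 to 0.9986, and 61 genes had an r above 0.99. Alb had means of 4994, 79.5 and 0.584 FPKM, and Reln, one of the stellate cell markers above, had means of 69.2, 7.36 and 0.0816 FPKM.

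Other genes of lipoprotein metabolism were read from 7 lists, with counts for P10 against P0, to be read beside the 31.3% of all genes tested that were lower and the 41% that were higher. Of 20 further apolipoproteins and particle-bound proteins, 10 were tested, 9 were lower and none was higher. Saa1, an acute phase protein carried on high density lipoprotein, was at 12.1, 15.2 and 7.61 FPKM at P0 and at 0.443, 0.773 and 0.193 FPKM at P10 (log2 change −3.07, limma adjusted p = 1.71e-06). Apol9a and Apol9b had log2 changes of −2.69 and −2.51, both past the threshold. Clu, also called apolipoprotein J and made by many epithelia, was the most abundant of this list and stood apart from it, with 5785, 6804 and 5418 FPKM at P0 and 6676, 6482 and 6373 FPKM at P10 (log2 change 0.12, adjusted p = 0.25). Apoc4 and Apoc2, which lie beside Apoc1, were at 0.920 to 1.84 and 0.378 to 0.648 FPKM at P0 and at no more than 0.0515 and 0.0985 FPKM at P10, and neither was tested.

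Of the genes for assembly, editing and secretion of lipoproteins, 15 of 16 were tested, 9 were lower and 5 higher at P10. Mttp, the transfer protein that loads lipid onto Apob, was at 9.69, 8.47 and 8.94 FPKM at P0 and at 1.99, 1.78 and 2.10 FPKM at P10 (log2 change −1.76, adjusted p = 4.02e-08). Apobec1, the enzyme that edits Apob mRNA, and Pla2g12b, which is needed for lipid loading of the particle, had log2 changes of −1.90 and −1.70. The general chaperone Hspa5 rose by 1.26 and the transport genes Sec24c and Mia2 by 0.56 and 0.52, whereas P4hb, the partner subunit of Mttp, fell by 0.59. Mttp, which fell by less than Apob, therefore kept a level above 1 FPKM at P10 where Apob did not.

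Among 6 tested genes of 10 for formation of high density lipoprotein and lipid transfer, 4 were lower and 1 higher. Abca1, the exporter that loads lipid onto Apoa1, was at 7.02, 5.97 and 7.60 FPKM at P0 and at 0.382, 0.537 and 0.443 FPKM at P10 (log2 change −2.43, adjusted p = 1.28e-08). Lcat, which esterifies cholesterol on the particle, and the lipase Lipg had log2 changes of −1.05 and −1.09, Scarb1 fell by 0.52, and Soat2, which esterifies cholesterol inside cells, rose by 1.86. All 7 tested of 9 lipases and lipase inhibitors were lower at P10. Lpl, the lipase that releases fatty acids from particles in blood, was at 5.64, 5.46 and 6.44 FPKM at P0 and at no more than 0.00659 FPKM at P10 (log2 change −2.77, adjusted p = 2.13e-09), and its inhibitor Angptl8 had a log2 change of −0.92. Lmf1, needed for lipase folding, fell by 0.25.

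Of 14 receptor genes and their regulators 12 were tested, 6 were lower and 3 higher. The uptake receptor Lrp1, its chaperone Lrpap1 and the proteoglycan Sdc1 had log2 changes of −0.77, −0.75 and −0.64, and the ubiquitin ligase Mylip rose by 1.10. Lsr, a receptor for triglyceride-rich particles, was at 120, 98.4 and 108 FPKM at P0 and at 149, 143 and 142 FPKM at P10 (log2 change 0.41, adjusted p = 0.000692). The ligand Apoe thus fell by 7.54 on the log2 scale while the changes of the named receptors stayed below 1.

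Of 28 transcriptional regulators of apolipoprotein genes 24 were tested, 15 were lower and 5 higher. Hnf4a, a nuclear receptor that binds many apolipoprotein promoters, was at 60.7, 56.1 and 76.3 FPKM at P0, and at 58.1, 56.9 and 54.0 FPKM at P10 (log2 change −0.18 ± 0.0973, adjusted p = 0.128). Prox1, Nr0b2 and Foxa3 had log2 changes of −3.48, −2.77 and −2.39, and Srebf1 of −0.53, all past the threshold. Nr1h2 and Tcf7l2 rose by 0.44 and 0.36. Prox1 was at 9.37, 16.1 and 14.7 FPKM at P0 and between 0.242 and 0.287 FPKM at P10.

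Of 13 genes beside the 2 clusters 10 were tested, 6 were higher and 2 lower at P10, counts not far from the 41% and 31.3% over all genes tested. Apoc2 and Apoc4, whose lower values at P10 are given above, belong to the same list and were not tested. Bcam and Relb near Apoe rose by 1.26 and 0.86, Zpr1 near Apoa5 rose by 0.70, and Clptm1 and Nectin2 had log2 changes of −0.30 and −0.22. Over all genes tested the median log2 change was 0.0688, and the medians of the lists were −0.951 for further apolipoproteins, −0.92 for lipases, −0.783 for formation of high density lipoprotein, −0.577 for regulators, −0.536 for assembly, −0.184 for receptors and 0.257 for neighbours. The lists share members (Lipc, Lipg, Scarb1, Apoc2 and Apoc4), and the difference between lists was not tested.

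**Figure D3:**
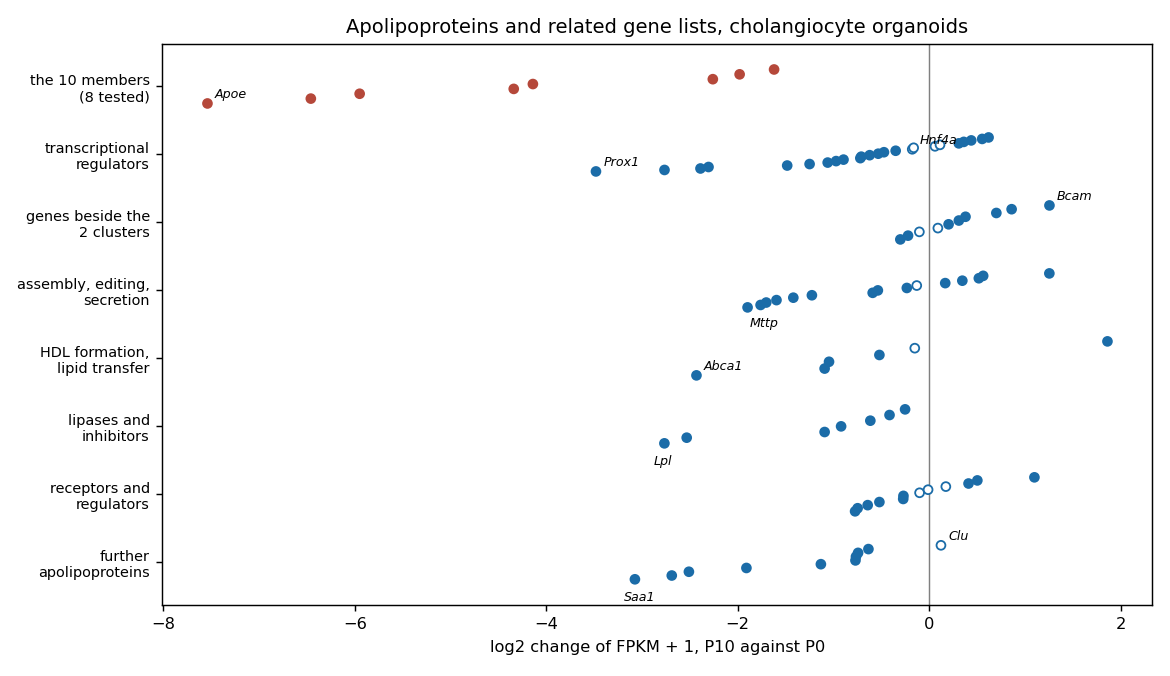
Log2 change of FPKM + 1 from P0 to P10 in Cho-Orgs for the apolipoprotein genes and 7 lists of lipoprotein genes, with 1 point per tested gene, filled where the limma adjusted p was under 0.05 and open otherwise. The apolipoprotein genes reach −7.54 (Apoe), while receptors, regulators and neighbours have genes on both sides of 0, with Hnf4a at −0.18.

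In the hepatocyte table the apolipoprotein genes were low in all 12 libraries and differed little between groups. Over the 12 libraries Apoe was at 17.7 to 22.02 FPKM (median 20.1), Apoc1 at 5.24 to 10.6 (median 6.65), Apoh at 2.89 to 4.64 (median 3.93), Apoa1 at 2.99 to 4.37 (median 3.90) and Apoa4 at 1.67 to 2.32 FPKM (median 1.98). Apob was at 0.527 to 0.710 FPKM, did not pass the filter here and was not tested. Its 3 Pri-Hep libraries (0.623, 0.589 and 0.607 FPKM) were above its 3 P1 libraries (0.527, 0.541 and 0.550 FPKM). How many of all genes show such a separation was not counted for these 12 libraries, so nothing is read from it. Apom was at 0.254 to 0.598 FPKM. Apoa2 and Apoa5 had no fragment in any library, the libraries labelled Primary hepatocytes included. Apoc3 had 22 fragments over the 12 libraries, with none in the 3 Pri-Hep libraries, 1 to 5 in each P1 library, 4 in each P5 library and 0, 0 and 2 at P10.

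The level of Apoe in Pri-Hep was 20.2, 17.7 and 20.3 FPKM, beside 20.5, 19.97 and 21.1 FPKM at P1, 19.8, 22 and 22.02 FPKM at P5 and 19.6, 19.4 and 19.4 FPKM at P10. The Pri-Hep libraries overlapped those of each Hep-Orgs passage, while all P5 libraries were above all P10 libraries. The share of all genes with that separation was not counted either. For Apoc1 the highest library was a P10 library, with 5.84, 6.59 and 6.96 FPKM in Pri-Hep and 10.6, 6.35 and 6.71 FPKM at P10. For Apoa1 the levels were 3.88, 2.99 and 4.10 FPKM in Pri-Hep, 3.33, 3.84 and 4.08 FPKM at P1, 3.60, 3.91 and 4.16 FPKM at P5 and 4.21, 4.37 and 3.68 FPKM at P10. Ranked among all genes, Apoe stood between places 2085 and 2628 in these libraries.

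The 5 members that passed the filter were Apoa1, Apoa4, Apoc1, Apoe and Apoh, and limma called none of them in any comparison with Pri-Hep. Over all 10986 genes, 0.0091% were called at P1, 0.0091% at P5, 0% at P10 and 0.0182% in the test for any difference among the 4 groups. At an unadjusted limma p under 0.05 the number of members was 0 at P1, 1 at P5, 0 at P10 and 0 in the test for any difference. In the same order, 911, 1184, 730 and 1098 of all 10986 genes had such a p, so nothing is read from the 1 member. The member at P5 was Apoe, with a log2 change of 0.13 and a limma adjusted p = 0.405. A test on the recovered fragments with limma-voom also called none of the members. The log2 changes ranged from −0.0466 to 0.0806 for P1, from −0.0649 to 0.129 for P5 and from −0.0219 to 0.225 for P10, with standard errors of 0.0503 to 0.158, and a p above the threshold does not show that the groups were alike. Of the other lipoprotein lists, no gene was called by limma in any of these comparisons.

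The spread over the 12 libraries was compared with that of counting alone. The variance divided by that of counting was 0.956 for Apoa1, 0.585 for Apoa4, 0.637 for Apom, 1.48 for Apob, 1.76 for Apoh, 1.84 for Apoc3, 2.91 for Apoe and 3.24 for Apoc1. Over 5977 genes with 100 to 1000 fragments on average the median of this ratio was 1.49 and the 95th percentile 2.97. Apoe, Apob and Apoh lie in that range of fragments. Apoc1, with 67 to 124 fragments per library, and the other members lie below it.

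**Figure D4:**
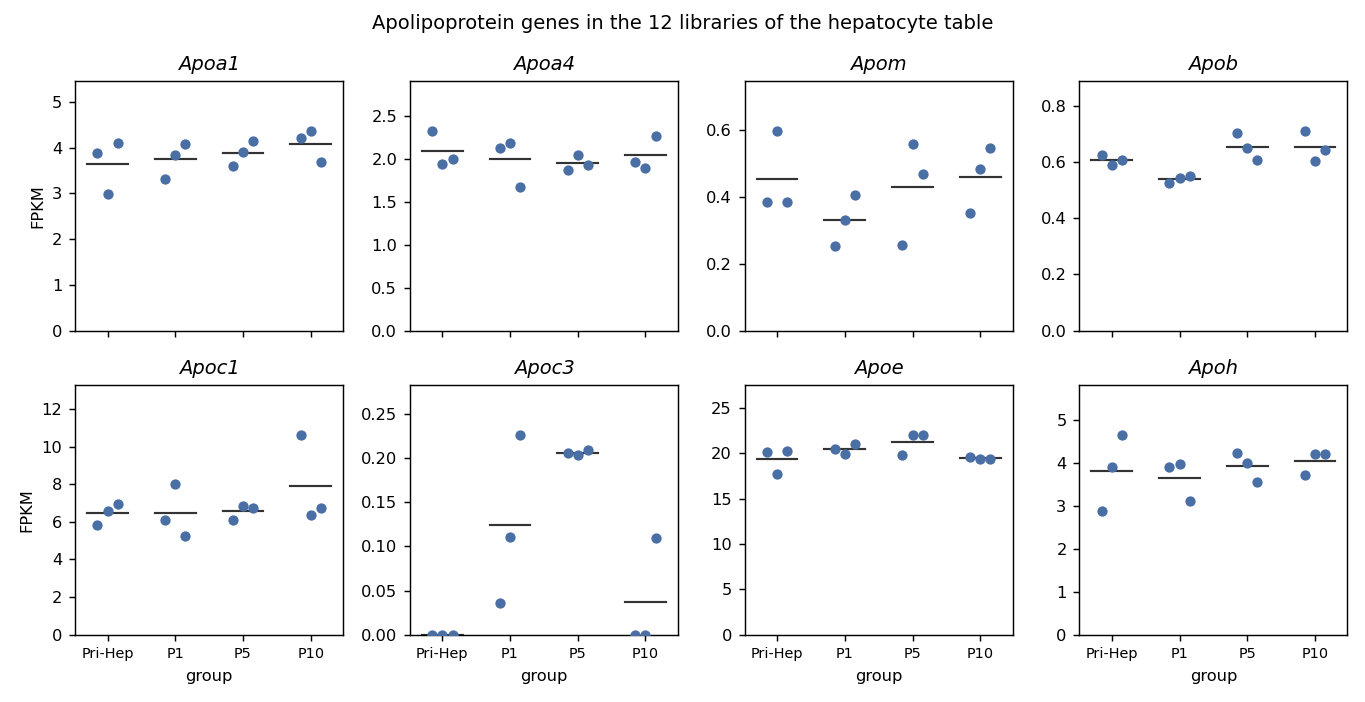
Level of the apolipoprotein genes in the 12 libraries of the hepatocyte table in FPKM, with 1 point per library, a line at the mean of 3 libraries and groups as labelled (Pri-Hep and Hep-Orgs of P1, P5, P10). Pri-Hep overlaps each Hep-Orgs passage for the genes drawn above 0, apart from Apob at P1 and Apoc3 at P1 and P5, Apoe is the highest at 17.7 to 22.02 FPKM, and Apoa2 and Apoa5, which are not drawn, were at 0 in all 12 libraries.

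Among the P0 Hep-Orgs picked by shape, 7 of the 10 members were higher in the grape-like and in the intermediate library than in the round-like one. With 1 library per shape there was no replicate and no test, and a difference of more than 2-fold in FPKM + 1 was read as large. For Apoe the level was 2201 FPKM in grape-like, 1205 FPKM in intermediate and 396 FPKM in round-like Hep-Orgs. Apoa1 was at 474, 384 and 36.4 FPKM in the same order, and Apoc1 at 184, 290.5 and 57.3 FPKM. The round-like library was the lowest for all 3 genes, and the intermediate library was the highest for Apoc1.

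The intermediate library was also the highest for Apob, Apoh and Apom. Apob was at 42.1, 53.8 and 6.12 FPKM in the same order, Apoh at 62.6, 100 and 9.80 FPKM and Apom at 88.3, 96.4 and 9.62 FPKM. Apoa2 was highest in the grape-like library, as Apoe and Apoa1 were, with 89.99, 22.4 and 9.998 FPKM. Apoc3 was at 0.904, 1.79 and 1.80 FPKM and Apoa4 at 0.9895, 0.238 and 0.939 FPKM, and the grape-like library was not the higher of the grape-like and round-like pair beyond counting error for either. The ratio of the grape-like to the round-like library was 0.503 for Apoc3 (counting interval 0.296 to 0.804), and that of the intermediate to the round-like library was 0.253 for Apoa4 (0.137 to 0.444), both below 1 beyond counting error though not past 2-fold in FPKM + 1. Apoa5 was read with an estimated 4 fragments in the intermediate library and at 0 in both others.

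On the log2 scale of FPKM + 1 the grape-like library exceeded the round-like one by 3.67 for Apoa1, 3.07 for Apom, 3.05 for Apoa2, 2.60 for Apob, 2.56 for Apoh, 2.47 for Apoe and 1.67 for Apoc1. These 7 of 10 members stood beside 12.9% of 12595 genes that were higher past 2-fold, and 0 of 10 beside 8.82% that were lower. The 12595 genes are those at 1 FPKM or more in at least 1 of these libraries, and the shares and medians over all genes given here are over them. Apoa4, at no more than 0.9895 FPKM, and Apoa5, at no more than 0.0392 FPKM, are not among them. The intermediate library exceeded the round-like one past 2-fold for the same 7 genes, by 1.09 (Apoa2) to 3.36 (Apoa1), beside 3.85% of all genes, and 0 of 10 were lower beside 2.54%. Between the grape-like and the intermediate library Apoa2 alone differed past 2-fold (1.96), or 1 of 10 beside 9.71% of genes higher, and 0 of 10 beside 7.15% lower. The median log2 ratio of the 10 members was 2.52, 1.96 and −0.0904 in these comparisons, beside −0.13, −0.122 and 0.0342 over all genes. In linear terms the ratio of Apoa1 between the grape-like and the round-like library was 13.0, with an exact 95% counting interval of 12.3 to 13.7, and that of Apoe was 5.56 (5.49 to 5.64). Such intervals cover counting error only, since the cDNA was amplified, and say nothing of the spread between organoids.

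**Figure D5:**
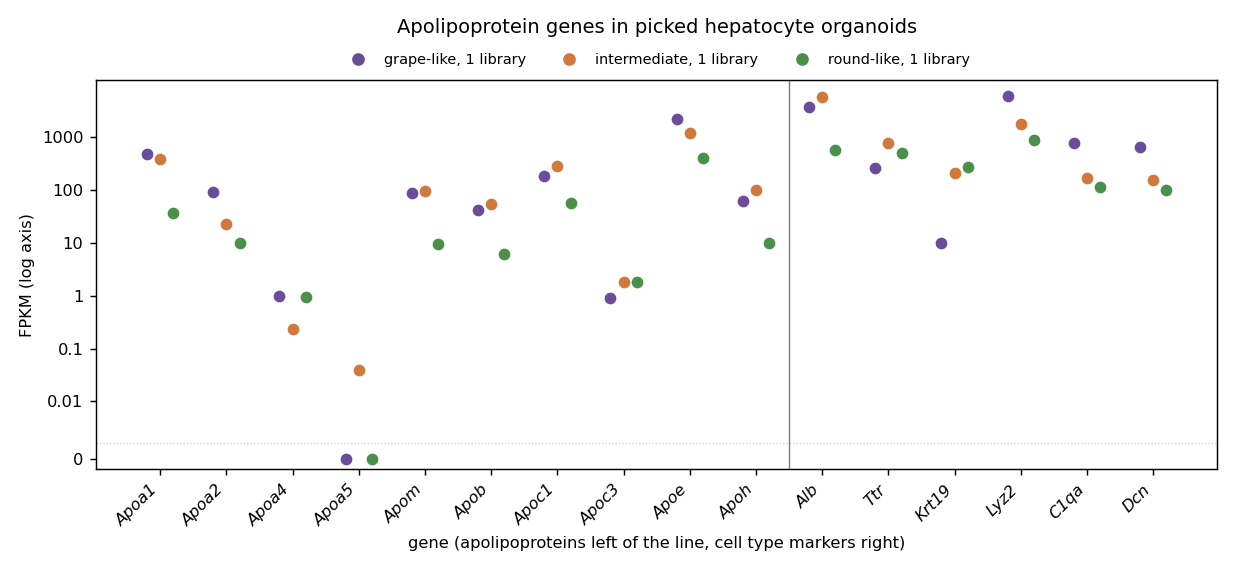
Level of the apolipoprotein genes in the 3 Smart-Seq libraries of P0 Hep-Orgs in FPKM on a log axis, with 1 point per library, no replicates, values of 0 below the dotted line and 6 cell type markers to the right of the vertical line. The round-like library lies below both others for Apoa1, Apoa2, Apob, Apoc1, Apoe, Apoh and Apom, but not for Apoa4 and Apoc3.

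Markers differed between the shapes as well. Alb was at 3649, 5729 and 565 FPKM, again in the order grape-like, intermediate, round-like, and the summed hepatocyte markers were at 5640, 10390 and 1423 FPKM. Krt19 was at 9.86, 208 and 272 FPKM. All 12 macrophage markers were above 1 FPKM in each library and summed to 10950, 3158 and 1754 FPKM, with Lyz2 at 5942, 1792 and 887 FPKM. The stellate cell markers summed to 1419, 374 and 315 FPKM and the endothelial markers to 168, 70.4 and 31.5 FPKM. Apoe, Apoa1 and Apoa2 had the order of the macrophage and stellate sums over the 3 libraries, and Apob, Apoc1, Apoh and Apom that of Alb. Their part in the levels of the apolipoprotein genes was not tested.

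The makeup of the apolipoprotein mRNA is given side by side for the tables, which were normalized apart from each other and need not share gene lengths. The hepatocyte table lists a length of 537 bases for Apoa2 and 1236 for Apoa1, whereas the values of the other tables fitted 925 and 988 bases, so part of a difference in share between tables can come from length. Apoe made up 54.5% to 66.1% of the summed FPKM of the 10 genes in Cho-Orgs at P0, 36.4% to 38.4% at P5 and 31.2% to 38.8% at P10. In the hepatocyte table its share was 47.6% to 58.0%, and the Smart-Seq libraries had 70.01%, 56.0% and 74.98%. Apoc1 made up 42.5% to 52.4% at P5 and 48.8% to 56.0% at P10 of Cho-Orgs, more than Apoe in each of those libraries. In the hepatocyte table Apoa4 made up 4.59% to 6.43%, beside at most 0.722% in any Cho-Orgs library and at most 0.178% in the Smart-Seq libraries.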

How the data were processed

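The deposited values are FPKM in 3 tables, one each for the 12 hepatocyte, 9 Cho-Orgs and 3 Smart-Seq libraries. The submitters' processing notes name edgeR 3.40.2, featureCounts 2.0.3 and mm10, and the aligner is not given in the sources used here. The members and lists were chosen with earlier results of these data known. Values were compared as log2(FPKM + 1) for genes that reached FPKM 1 in 3 or more libraries of their table, by limma 3.58.1 (R 4.3.3) with lmFit and eBayes with trend, two-sided, with Benjamini-Hochberg adjustment over all genes and a threshold of 0.05. For the Smart-Seq libraries, which were not tested, all genes means those at FPKM 1 or more in at least 1 library. Since the files hold FPKM, the edgeR count test of the study was not repeated. Of each list, up to 3 genes per direction with the largest change among those past the threshold with separated groups were named, plus the highest expressed gene of each table and Hnf4a, Mttp, Alb and Krt19, and some genes that this rule takes and 1 promoter motif are not reported here. The main limma fit was tried on simulated data for P10 against P0 in Cho-Orgs and for Hep-Orgs P10 against Pri-Hep. The other contrasts and the alternative fits were not.

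In the hepatocyte table, whole fragments were recovered from FPKM and the listed gene length for 100% of values, within 0.02 fragments. In the other tables gene length and depth were estimated from such steps and GENCODE M21 and are approximate. A floor of 3 fragments per library was used, and counting intervals are exact 95% intervals that cover counting error only. Promoter windows came from RefSeq.

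The paper labels replicates 1 to 3 of all groups as 3 mice, so the replicate number may pair libraries. The deviations from the group means of same-numbered libraries correlated at −0.0741 to 0.119 (9 pairs, median −0.00626) in Cho-Orgs and at −0.0763 to 0.0548 (18 pairs, median −0.00155) in the hepatocyte table. A fit with the replicate number as a block was an alternative. The others were a pseudocount of 0.1, no filter, TPM, median-ratio size factors, leaving out each replicate and, for the hepatocyte table, limma-voom on the recovered fragments. The contrast between passage intervals and the fit without replicate 2 of P0 were added after the data were seen.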

Additional observations from a re-analysis of the deposited data

Results flagged for a closer look

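In Cho-Orgs the change from P5 to P10 differed from the change from P0 to P5 for 6 of 8 tested apolipoprotein genes, by a contrast of the 2 changes in limma that was chosen after the data were seen. On the log2(FPKM + 1) scale the later change minus the earlier one was 3.74 for Apob, 2.79 for Apom, 2.76 for Apoh, 1.95 for Apoc3 and 1.62 for Apoa2, with the larger fall before P5, beside 20.9% of all genes tested called in that direction. These 5 passed the filter only with the P0 libraries, which built the direction into their selection, and they were near or below 1 FPKM at P5, where FPKM + 1 leaves little room for a further fall. For Apoc1 it was −1.17, with the larger fall after P5, beside 27.8% of all genes. Without replicate 3 the values of Apoc3 (1.75, adjusted p = 0.086) and Apom (2.61, adjusted p = 0.077) did not pass the threshold and 4 of 8 members were called.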

How the results depend on the processing

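The 8 tested members were called lower at P5 and at P10 than at P0 under every alternative run, and 10 of 10 were with no filter. From P5 to P10 the number called was 4 or 5, and Apob was the gene that changed side, with a log2 change of −0.49 (adjusted p = 0.0474) with TPM, −0.32 (adjusted p = 0.0255) without replicate 2 and −0.30 (adjusted p = 0.00427) without replicate 2 of P0. In the contrast between intervals the number called was 6 of 8, and it was 6 with median-ratio size factors, 4 without replicate 3 and 7 in the other alternatives. With no filter the 7 were of 10 tested and included Apoa5 (0.37, limma adjusted p = 0.0156), which the other fits did not test. The value of Apoe in that contrast turned from 0.22 to −0.0784 with a pseudocount of 0.1 and to −0.0187 with TPM. None of the members was called in the hepatocyte table under any alternative. In the Smart-Seq table the number of members higher in the grape-like than in the intermediate library was 1, and 2 with a pseudocount of 0.1 and with TPM. With the replicate block 8, 4, 8 and 7 members were called in the 4 Cho-Orgs comparisons and 0 in each comparison of the hepatocyte table. Apart from Apoa1 in the contrast between intervals, the block changed no call of a member. The cause of these changes was not tested. Over all genes limma-voom called 30, 39, 0 and 65 in the hepatocyte table, where limma on FPKM called 1, 1, 0 and 2. Depth limits Apoa2, Apoa4, Apoa5, Apoc3 and Apom after P0, where each group held at most 23 estimated fragments.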
